A study of Homo sapiens with 16 samples.

Results

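The cytosolic ribosomal protein genes encode the proteins of the large and the small ribosomal subunit. They were taken from the count table by symbol: RPL or RPS followed by a number, with an optional A, L or X and a further number, together with RPLP0, RPLP1, RPLP2 and RPSA. The rule found 84 of the 27037 gene symbols, 52 of the large subunit and 32 of the small. The rule used symbols and no measured value, but it was chosen with earlier results of these data known. Of these, 81 had enough counts to be tested, among 15415 tested genes in all. The 3 others were RPL10L with 1 count over all samples, RPL3L with 7 and RPS18 with 12. RPL10L and RPL3L are paralogues that are known mainly from testis and from muscle. RPS18 encodes a core protein of the small subunit, so its 12 counts cannot be read as its mRNA level.

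The samples were poly(A)-selected RNA of SK-N-BE(2)C, an adrenergic neuroblastoma cell line with amplified MYCN. The cells had received DMSO (the vehicle), 10 µM retinoic acid (RA), 1 µM palbociclib (PB) or 1 µM palbociclib with 10 µM retinoic acid (PB+RA), and were collected after 5 days according to the methods of the study. Each of the 4 groups held 4 replicates, which were passages of this single line plated as separate experiments. Retinoic acid is a differentiating agent given to patients with neuroblastoma, and palbociclib inhibits the cyclin-dependent kinases CDK4 and CDK6, which drive entry into S phase. The design asked what each agent did alone and what the combination did beyond either.

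A human cytosolic ribosome is assembled in the nucleolus from ribosomal RNA and close to equal numbers of its proteins, so these genes are known for similar and high expression. Their mRNAs start with a C followed by a run of pyrimidines, the 5′ terminal oligopyrimidine (TOP) motif, through which the kinase mTORC1 and the RNA-binding protein LARP1 control their translation and stability. Transcription factors of the MYC family, MYCN among them, are known to promote ribosome production, which proliferating cells need in large amounts.

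Most of the start-site sequences that could be looked up carry this feature. They are shown for members on which the results turn. Of the 84 members, 67 had an entry in the RefSeq promoter table (GRCh38.p14). A C followed by pyrimidines, at least 6 bases long and starting within 10 bases of the annotated start, was present in 50 of the 67 (74.6%), against 5421 of all 27305 promoters (19.9%) and 2262 of 11251 of other tested genes (20.1%). It was present in 49 of 62 members that are not paralogues (79.0%) and in 1 of 5 paralogues. Each line below gives the 30 bases around the start, 5′ to 3′ on the strand of the gene, with the start after the base in position 15 and the pyrimidine run in capitals. RPL15 and RPS27L had runs of only 4 and 3 bases, which are not marked. The run of RPS15 has 7 bases from base 10 after the start, and the window ends within it. RPSA lies at chr3:39406705-39406734 (plus strand), RPS15 at chr19:1438381-1438410 (plus), RPS16 at chr19:39435935-39435964 (minus), RPL34 at chr4:108620561-108620590 (plus), RPL15 at chr3:23916530-23916559 (plus), RPS27 at chr1:153990747-153990776 (plus), RPS27L at chr15:63157463-63157492 (minus), RPL22 at chr1:6199581-6199610 (minus) and RPL22L1 at chr3:170870181-170870210 (minus). RPSA, RPS15 and RPS16 were members that fell, RPL34 and RPL15 were members that rose with palbociclib, and the last 4 form a pair of core gene and paralogue each.
RPSA: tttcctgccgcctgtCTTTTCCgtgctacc
RPS15: tgcgcaggcgcggaccaaagcgatCTCTTC
RPS16: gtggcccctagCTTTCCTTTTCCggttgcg
RPL34: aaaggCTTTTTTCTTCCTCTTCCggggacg
RPL15: ggcgctggggcctgctggaggagcttcacg
RPS27: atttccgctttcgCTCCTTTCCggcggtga
RPS27L: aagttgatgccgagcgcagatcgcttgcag
RPL22: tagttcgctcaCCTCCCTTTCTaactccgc
RPL22L1: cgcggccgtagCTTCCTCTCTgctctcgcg

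The run was found both in members that rose and in members that fell with palbociclib, in 22 of 28 (78.6%) and 5 of 6 (83.3%) of those with an entry. Other motifs searched on both strands, from 250 bases before to 50 bases after the start, were the E-box CACGTG, to which MYC proteins can bind, in 4 members (5.97%, against 7.43% of all promoters and 9.98% of those of other tested genes), the ETS core CCGGAAG in 23 (34.3%, against 10.7% and 18.4%) and AAGATGGC, part of the YY1 motif, in 7 (10.4%, against 3.03% and 5.19%). These matches describe letters in the window and do not show that a factor binds.

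The libraries held 19515779 to 31620821 counts, so that 3 counts correspond to 0.0949 to 0.154 CPM. CPM is the count of a gene per 1000000 gene counts of its sample. It is a relative measure, and in these bulk samples fewer cells of a type and less RNA per cell cannot be told apart. The adrenergic label was checked on 8 markers: their summed level was 2330 to 2621 CPM with DMSO, 2602 to 2951 with RA, 2932 to 3194 with PB and 2787 to 3698 with PB+RA, and none was at 0. The 7 mesenchymal markers with a row summed to 272 to 296, 298 to 327, 284 to 335 and 259 to 289 CPM, and none was at 0, although YAP1 averaged 1.35 ± 0.473 CPM with DMSO (SD, n = 4). Of the adrenergic markers, 3 rose and 2 fell with RA, 3 rose and 1 fell with PB, and 3 rose and 2 fell with PB+RA. Among the mesenchymal ones, 3 rose with RA, 1 rose and 3 fell with PB, and 2 fell with PB+RA. The part of these marker changes in the results below was not tested.

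Summed over all members, the share of counts was lower with retinoic acid and higher with palbociclib. They made up 4.57%, 4.63%, 4.69% and 4.40% of all gene counts in DMSO replicates 1 to 4. With RA the share was 3.99%, 4.26%, 3.77% and 3.91%, and with PB it was 4.70%, 4.99%, 4.85% and 4.97%. All 4 RA samples were below all DMSO samples, and all 4 PB samples were above them, the closest being 4.70% in PB replicate 1 and 4.69% in DMSO replicate 3. Scaled by the TMM library sizes that the tests use, RA stayed below DMSO, but the ranges of PB (4.68% to 5.03%) and DMSO (4.38% to 4.75%) overlapped. With PB+RA the share was 4.46%, 4.63%, 4.10% and 4.18%, below every PB sample and overlapping the ranges of DMSO and of RA. The means were 4.57% ± 0.127 with DMSO, 3.98% ± 0.205 with RA, 4.88% ± 0.131 with PB and 4.34% ± 0.243 with PB+RA (SD, n = 4). Between samples with the same replicate number, the PB+RA share was higher than the RA share by 6.92% to 11.8% of it and lower than the PB share in all 4, by a relative change of −5.22% to −15.8%.

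The subunits did not move alike. The large subunit members held 2.72% ± 0.0752 of the counts with DMSO, 2.41% ± 0.117 with RA, 3.02% ± 0.0737 with PB and 2.73% ± 0.145 with PB+RA. Those of the small subunit held 1.85% ± 0.0523, 1.57% ± 0.0882, 1.85% ± 0.0614 and 1.61% ± 0.0983. With palbociclib the large subunit share was thus above that of DMSO in every sample, while the small subunit shares overlapped. The ratio of the large to the small subunit share was 1.46 to 1.48 with DMSO, 1.52 to 1.55 with RA, 1.60 to 1.67 with PB and 1.67 to 1.72 with PB+RA. These 4 ranges did not overlap.

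**Figure D1:**
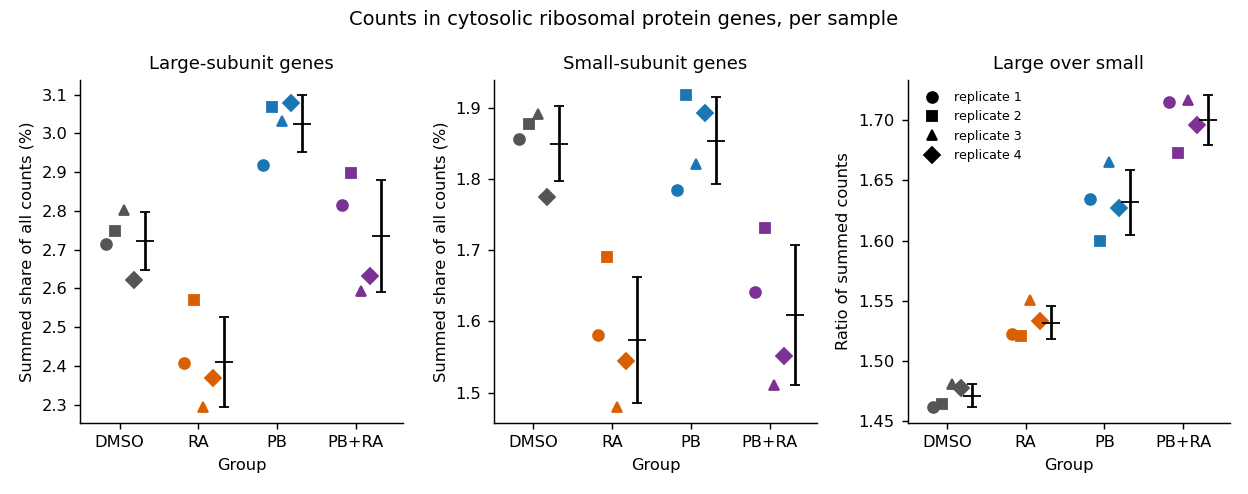
Share of all gene counts taken by the large subunit members (left, %), by the small subunit members (middle, %) and the ratio of both shares (right, no unit) in each of the 16 samples, with the marker giving the replicate number and the black bar the mean ± SD of 4 samples; the axes do not start at 0. The ratio rises from 1.46 to 1.48 with DMSO to 1.67 to 1.72 with PB+RA, and its 4 ranges do not overlap.

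Retinoic acid alone lowered the ribosomal protein mRNAs as a group by a small amount. With edgeR's quasi-likelihood test and a Benjamini-Hochberg adjusted p below 0.05, which is what passing, rose and fell mean here, 57 of the 81 tested members fell and 0 rose, where 16.4% of all tested genes fell and 18.8% rose. The 0 stood also at an unadjusted p below 0.05, with DESeq2 and with limma-voom. The log2 fold change was negative in 80 of 81 members, with a median of −0.21 (13.4% lower), against 0.01 over all tested genes. None passed a fold minimum of 0.5 on the log2 scale (2.54% of all genes were lower by that rule), again with each of the 3 tools. In 46 members all RA samples were below all DMSO samples, which held for 17.9% of all tested genes. Of the large subunit 31 of 50 fell, and of the small subunit 26 of 31.

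The largest decreases with RA among members with at least 10 CPM were those of RPSA, RPL14 and RPS2. RPSA encodes a small subunit protein that is also known as the laminin receptor precursor. Its gene lies at chr3:39448207-39467746 (hg19, plus strand). RPSA stood at 852, 881, 867 and 798 CPM with DMSO and at 662, 698, 586 and 599 CPM with RA. The groups did not overlap, and the log2 fold change was −0.43 ± 0.08 (SE, n = 4 per group, edgeR adjusted p = 0.000502). RPL14, which encodes a large subunit protein, went from 768 ± 61.6 to 576 ± 69.8 CPM (log2 fold change −0.42 ± 0.09, adjusted p = 0.00222). RPS2, at chr16:2012059-2014842 (minus strand), encodes a protein near the mRNA entry site of the small subunit and was the member with the highest CPM. It stood at 2678, 2602, 2452 and 2291 CPM with DMSO and at 2052, 2219, 1822 and 1806 CPM with RA. Here too no RA sample reached the DMSO range (−0.35 ± 0.09, adjusted p = 0.00808). RPSA and RPS2 have many annotated pseudogenes (74 and 25), to which reads may be lost. This holds for other members too, such as RPL21 (133) and RPL23A (87).

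At the other end, 23 members with a negative log2 fold change did not pass, and RPL22L1 was the 1 member with a positive value (0.14 ± 0.08, adjusted p = 0.185). RPL15 and RPL37 had log2 fold changes of −0.04 ± 0.07 and −0.05 ± 0.06 with RA (adjusted p = 0.738 and 0.559). RPL3, which shapes the peptidyl transferase centre, stood at 1405 ± 30.9 CPM with DMSO and 1350.2 ± 57.2 with RA (−0.07 ± 0.04, adjusted p = 0.274). Over the members with at least 10 CPM, the point estimates thus ran from that of RPSA to that of RPL22L1.

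Palbociclib alone moved the members in both directions, and most of those that passed rose. 31 of 81 members rose and 8 fell with PB, where 28.4% of all tested genes rose and 25.2% fell. The share of members that rose, 31 of 81, was not far above that background. The median log2 fold change was 0.11 (8.12% higher), against 0.03 over all tested genes. The increases lay mainly in the large subunit, where 22 of 50 rose and 2 fell with a median of 0.15, while 9 of 31 of the small subunit rose and 6 fell with a median of 0.04. The 2 large subunit genes that fell were the paralogues RPL22L1 and RPL39L. All PB samples were above all DMSO samples in 30 members (25.7% of all genes) and below in 6 (24.2%). Without PB replicate 2, 20 members rose.

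RPL34, RPL37 and RPL13A had the largest increases with PB among members with at least 10 CPM. RPL34 and RPL37 encode large subunit proteins, at chr4:109541725-109551568 (plus strand) and chr5:40825364-40835324 (minus strand). RPL34 stood at 211, 216, 235 and 202 CPM with DMSO and at 286, 300.02, 288 and 306 CPM with PB. The lowest PB sample was above the highest DMSO sample, and the log2 fold change was 0.45 ± 0.06 (adjusted p = 6.85e-06). RPL37 rose from 449, 455, 449 and 423 CPM to 595, 617, 584 and 580.4 CPM (0.42 ± 0.06, adjusted p = 1.22e-05). RPL13A, whose protein is also known for a role in silencing interferon-induced mRNAs, stood at 798, 847, 992 and 866 CPM with DMSO and at 922, 1031, 1282 and 1276 CPM with PB. Its groups overlapped (0.37 ± 0.10, adjusted p = 0.00451), and replicates 3 and 4 were above replicates 1 and 2 in both. RPL3 reached 1800.2 ± 52.8 CPM from 1405 ± 30.9 (0.36 ± 0.05, adjusted p = 4.87e-06), and RPL15 and RPL12 rose by similar amounts (0.34 ± 0.07 and 0.34 ± 0.06, adjusted p = 0.000752 and 0.000111).

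The members that fell with PB were RPSA, RPS15, RPS3, RPS20 and RPS9 of the small subunit and the paralogues RPS27L, RPL22L1 and RPL39L. RPS3, RPS20 and RPS9 are named here after their values were seen. RPS15, at chr19:1438357-1440494 (plus strand), encodes a protein needed for late maturation and export of the small subunit. RPS15 stood at 673, 643, 656 and 620.2 CPM with DMSO and at 516, 577, 537 and 539 CPM with PB. No PB sample reached the DMSO range (−0.26 ± 0.07, adjusted p = 0.00393). RPSA stood at 684, 752, 642 and 669 CPM with PB, also wholly below its DMSO values (−0.31 ± 0.08, adjusted p = 0.00296). RPS3, which lines the mRNA entry channel, went from 1439 ± 75.5 to 1278 ± 69 CPM (−0.17 ± 0.05, adjusted p = 0.0137).

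RPS10 was the 1 member that passed both the p and the fold minimum with PB (16.9% of all genes were higher by this rule). It was at 5.42 ± 0.938 CPM with DMSO and 8.99 ± 1.14 CPM with PB (0.72 ± 0.16, adjusted p = 0.00113). This is a very low level for a core protein of the small subunit. RPS10 overlaps the read-through gene RPS10-NUDT3 on the same strand, and how reads shared by both were counted was not tested. RPL17 and RPL36A overlap read-through genes in the same way, and with RPS10 and RPS18 they are uncertain as measures of their mRNAs.

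**Figure D2:**
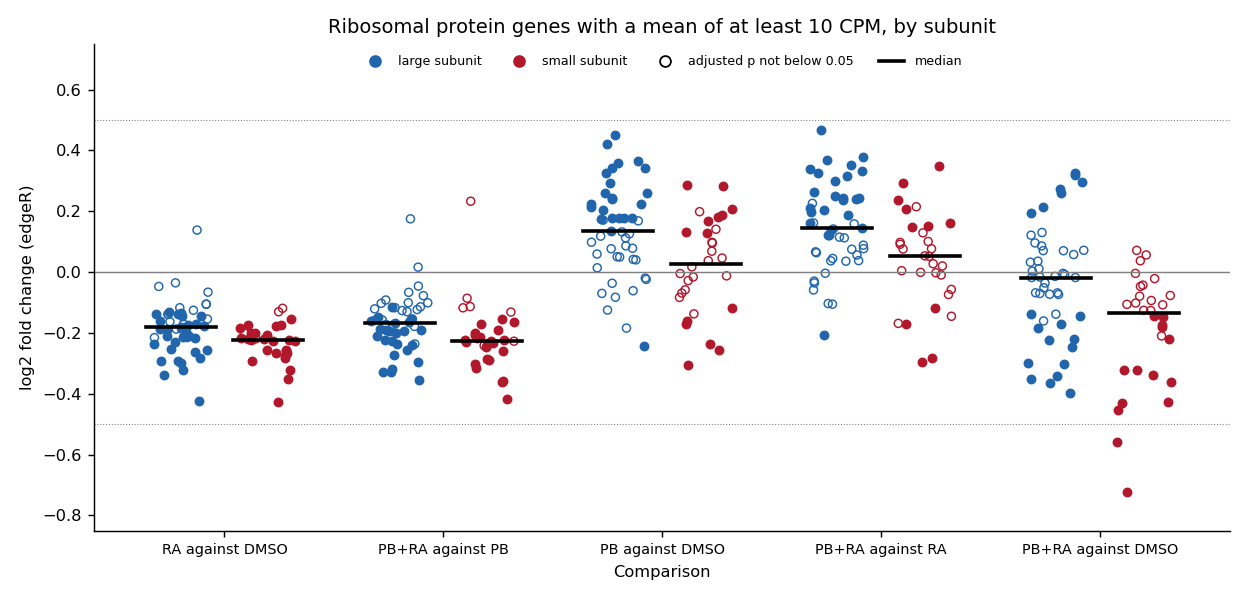
Log2 fold change of each of the 77 members with a mean of at least 10 CPM in the 5 comparisons, large subunit (47) and small subunit (30) side by side; a filled point has an adjusted p below 0.05, an open point does not, the black line is the median and the dotted lines mark ±0.5. The RA comparisons lie below 0 for both subunits, whereas the PB comparisons lie above 0 mainly for the large subunit.

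The combination gave fewer calls among the members than among all genes. Against DMSO, 8 of 81 members rose with PB+RA and 28 fell, where 34.7% of all tested genes rose and 31.4% fell. The share of members called was thus below the background for increases and near it for decreases. The median log2 fold change was −0.07, against 0.04 over all genes. The 8 that rose were all of the large subunit, in which 14 of 50 fell, and of the small subunit 0 rose and 14 of 31 fell. In 10 members the PB+RA samples were all above those of DMSO (31.4% of all genes), and in 20 all below (26.9%).

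RPSA was the member that fell most and passed the fold minimum, together with RPS15 and RPL39L (17.9% of all genes were lower by this rule). RPSA was at 529.5, 605, 484 and 482 CPM with PB+RA, below every DMSO and every PB sample (−0.72 ± 0.08 against DMSO, adjusted p = 3.81e-07). RPS15 was at 484, 494, 406 and 411 CPM with PB+RA, below every sample of the 3 other groups (−0.56 ± 0.07, adjusted p = 1.47e-06). RPS16, which encodes another small subunit protein, went from 777 ± 52.3 to 579 ± 64.2 CPM (−0.45 ± 0.08, adjusted p = 8.35e-05). The number of members lower by this rule was 5 without PB+RA replicate 1 and 5 without PB+RA replicate 2.

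Among members with at least 10 CPM, the increases with PB+RA were led by RPL34, RPL37 and RPL15. RPL34 was at 279, 298, 259 and 269.6 CPM, above every DMSO sample (0.33 ± 0.06, adjusted p = 0.000107). RPL37 was at 591, 607, 533 and 529 CPM, also without overlap (0.32 ± 0.06, adjusted p = 0.000119), and RPL15 rose by 0.30 ± 0.07 (adjusted p = 0.00169). RPL36A was the 1 member that passed the fold minimum upward (24.0% of all genes), at 0.28 ± 0.0386 CPM with DMSO and 0.509 ± 0.0433 CPM with PB+RA (0.82 ± 0.31, adjusted p = 0.0283). Its level is a few times the floor of 3 counts, it overlaps the read-through gene RPL36A-HNRNPH2, and the call was lost without DMSO replicate 1, without DMSO replicate 2 and without PB+RA replicate 1, 2 or 3 (adjusted p up to 0.359 over all alternatives tried).

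Read over the 3 treated groups, the members fell into a few patterns. The largest, 22 members, fell with RA and with PB+RA and did not pass with PB, among them RPLP0, RPS2, RPS16 and RPL14 (3.42% of all tested genes had this pattern). A further 18 rose with PB, fell with RA and did not pass with PB+RA, among them RPL4, RPL22, RPL26, RPLP1 and RPS29 (0.967% of all). Another 12 fell with RA only, among them RPL5, RPL11, RPS6 and RPS27A (1.65% of all). 7 rose with PB and with PB+RA and did not pass with RA, namely RPL3, RPL10A, RPL12, RPL15, RPL31, RPL34 and RPL37, all of the large subunit (13.5% of all). 5 fell in all 3 groups, namely RPSA, RPS3, RPS9, RPS15 and RPS20, all of the small subunit (9.56% of all). No call in any of the 3 groups was made for 7 members, among them RPL13, RPL18, RPL39, RPL41, RPS14 and RPS19 (22.8% of all). These patterns depend on the fit. With the replicate number as a block RPL34 passed with RA (−0.14, adjusted p = 0.0283). RPL11 and RPS27A then passed with PB (0.12 and 0.14, adjusted p = 0.0128 and 0.0175), as did RPS16 (−0.14, adjusted p = 0.0112). RPS6 and RPL26 then passed with PB+RA (−0.10 and 0.12, adjusted p = 0.0405 and 0.0385). These 3 comparisons share the DMSO samples, and failing the test in a group does not show that a member stayed the same there.

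**Figure D3:**
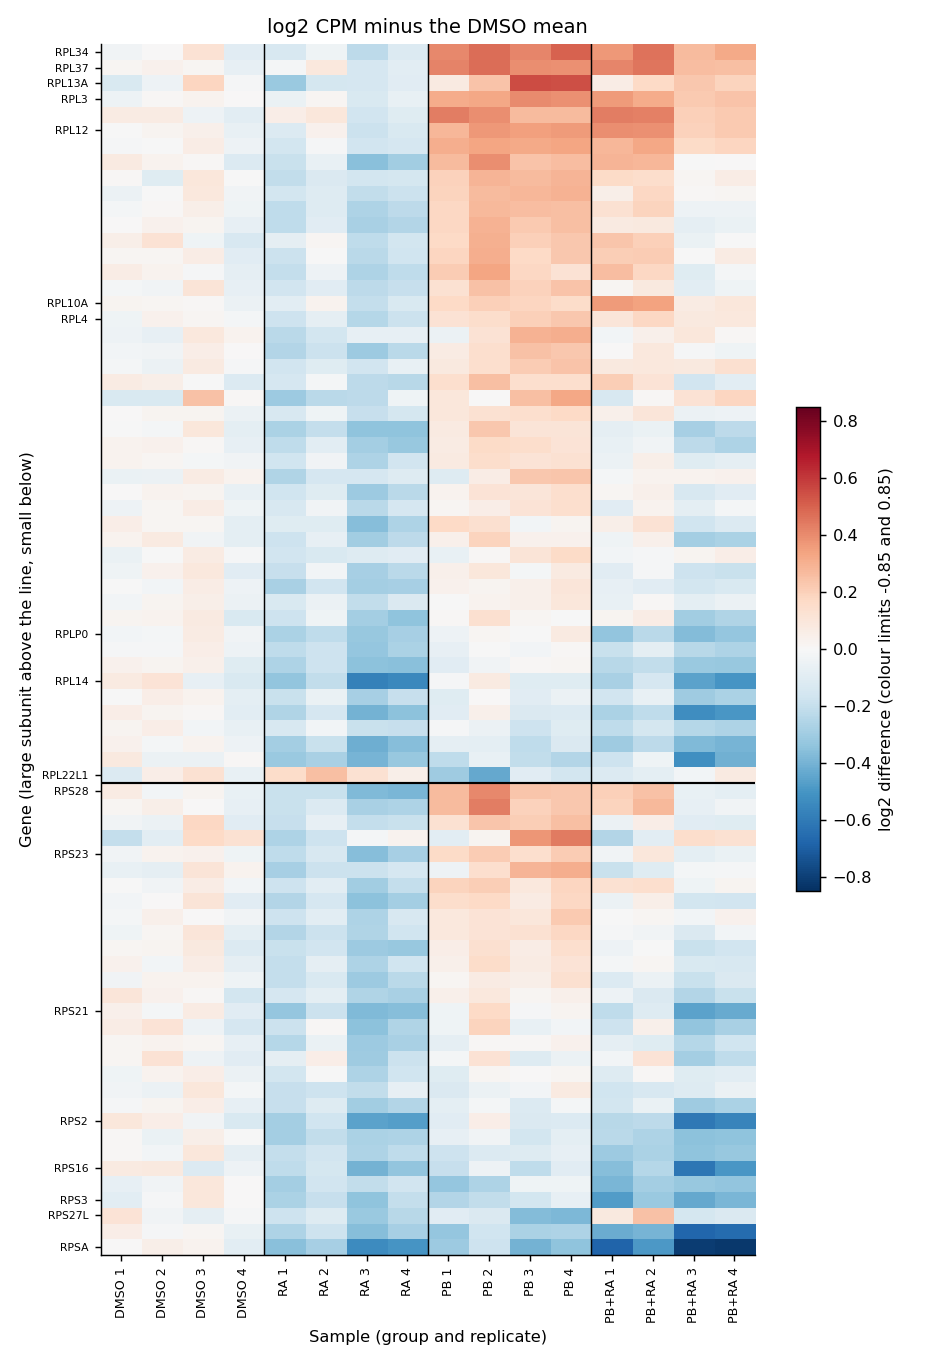
Log2 CPM of the 77 members with a mean of at least 10 CPM (rows) in the 16 samples (columns), each minus the mean of the 4 DMSO samples and coloured within ±0.85, with the rows of each subunit ordered by their log2 fold change with PB and a few rows labelled. The RA columns are lower over most rows, the PB columns are higher in the upper rows and lower in the bottom rows of each subunit, and the PB+RA columns are higher mainly in the top rows of the large subunit.

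RA added to palbociclib lowered many of the members. Against PB, 49 of 81 members fell with PB+RA and 0 rose, where 20.9% of all tested genes fell and 17.2% rose. At an unadjusted p below 0.05, 2 members were higher, and with DESeq2 or limma-voom 0 were. The median was −0.19 (−0.01 over all genes), 77 of 81 members were negative, and 25 of the large and 24 of the small subunit fell. In 32 members all PB+RA samples were below all PB samples (15.2% of all genes). None passed the fold minimum, where 9.02% of all genes were higher and 7.27% lower by that rule. With the replicate number as a block, 70 fell and 2 rose, namely RPS27L (log2 fold change 0.23, adjusted p = 0.0043) and RPL22L1 (0.18, adjusted p = 0.042). The shares of all genes above belong to the fit without the block, and none with the block is given here. Among members with at least 10 CPM, RPSA (−0.42 ± 0.08, adjusted p = 0.000491), RPS2 (−0.36 ± 0.09, adjusted p = 0.00675) and RPS21 (−0.36 ± 0.08, adjusted p = 0.0015) had the lowest values.

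PB added to RA raised members of the large subunit above all. Against RA, 32 members rose with PB+RA and 6 fell, where 26.5% and 27.9% of all tested genes did. With the replicate number as a block 40 rose and 10 fell, and without RA replicate 1, 3 fell. No shares of all genes are given here for these alternatives. In the fit reported, 25 of the large subunit rose and 2 fell, and of the small subunit 7 rose and 4 fell. RPL36A passed the fold minimum (1.59 ± 0.35, adjusted p = 0.00105, with 14.9% of all genes higher by this rule), from 0.167 ± 0.106 CPM with RA, close to the floor of 3 counts. RPL34 (0.47 ± 0.06, adjusted p = 4.53e-06), RPL12 (0.38 ± 0.06, adjusted p = 3.79e-05) and RPL37 (0.37 ± 0.06, adjusted p = 4.86e-05) had the highest values among members with at least 10 CPM. RPL39L (−0.35 ± 0.11, adjusted p = 0.0167), RPSA (−0.30 ± 0.08, adjusted p = 0.00367) and RPS15 (−0.28 ± 0.07, adjusted p = 0.0019) were among the lowest.

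The effect of each agent could be compared between the absence and the presence of the other in samples that are not shared. For RA, 48 of 81 members fell both against DMSO and in PB+RA against PB, as did 11.8% of all tested genes. Over the 77 members with at least 10 CPM, the log2 fold changes of RA in the absence and the presence of PB had a Pearson r of 0.707 and the same sign in 75 (r = 0.748 over all tested genes). For PB, 27 members rose in both settings (21.0% of all tested genes) and 6 fell (21.0%), the 6 being RPSA, RPS3, RPS15, RPS20, RPL22L1 and RPL39L. Here r was 0.898 and the sign was the same in 66 of 77 (r = 0.814 over all genes). These correlations run across genes, which are not independent replicates and share libraries. GC content of the transcripts ranged from 39.1% to 63.3% among the members, and the only Spearman correlation with GC beyond 0.13 in size was that of PB+RA against PB (rho = −0.341). After a GC and length correction fitted over all genes, rho among the members was −0.297 for RA, −0.371 for PB+RA, −0.311 for PB+RA against RA and −0.543 for PB+RA against PB, all farther from 0 than before.

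The interaction, the amount by which the log2 effect of the combination differs from the sum of both single effects, passed in 0 of 81 members in either direction (0.947% of all tested genes were above and 4.35% below the sum). At an unadjusted p below 0.05, 1 member was above and 0 below the sum, and with DESeq2 1 passed and with limma-voom 0. RPL36A, at very few counts, had the highest point estimate (0.88 ± 0.48, adjusted p = 0.365). The median interaction over the members was 0.01, against −0.04 over all genes. Among members with at least 10 CPM, RPS27L had the highest value (0.45 ± 0.13, adjusted p = 0.0538), which passed with the replicate number as a block (0.45, adjusted p = 0.0011) and with DESeq2 (adjusted p = 0.0117), over a range of 0.000456 to 0.107 in the alternatives tried. RPL26L1 came next (0.22 ± 0.12, adjusted p = 0.372), and RPS29 was among the 2 lowest (−0.11 ± 0.09, adjusted p = 0.586). A value that does not pass does not show that the effects add up exactly.

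**Figure D4:**
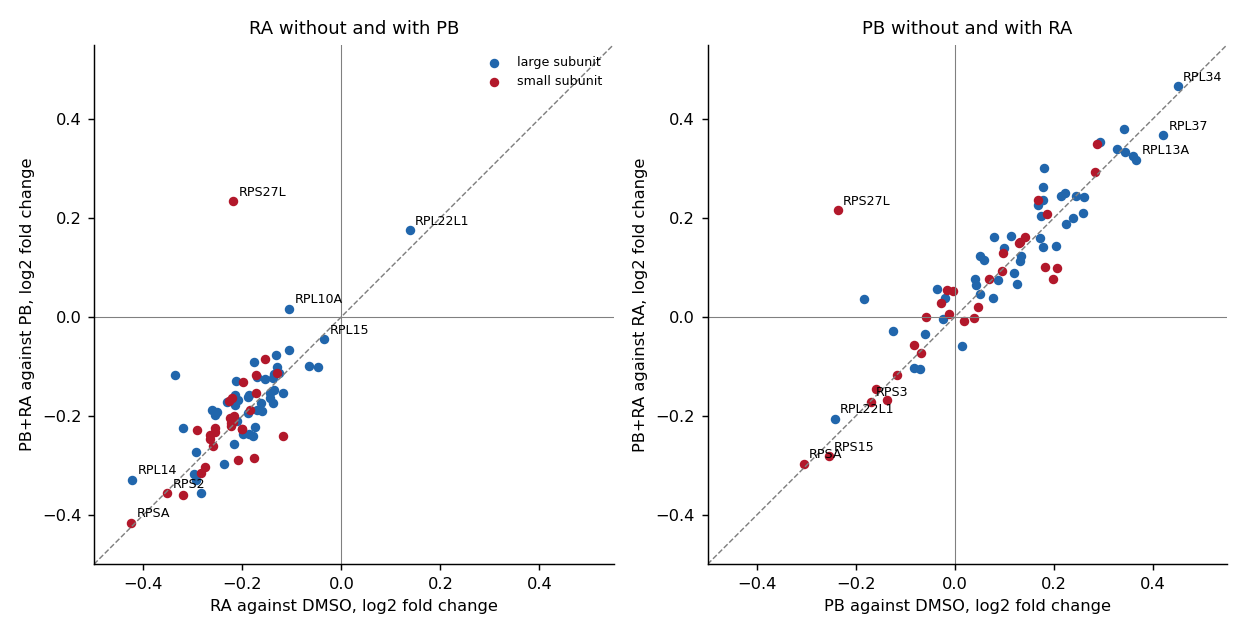
Log2 fold change of each of the 77 members with a mean of at least 10 CPM for an agent alone against DMSO (x axis) and for the same agent added to the other (y axis), RA on the left and PB on the right, with the dashed line marking equal effects. The points follow the line, with r of 0.707 for RA and 0.898 for PB across genes.

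The mRNAs of the stalk proteins all fell with RA and received different calls with PB. RPLP0, RPLP1 and RPLP2 form the acidic stalk of the large subunit, which recruits the elongation factors. With RA all of them fell (log2 fold changes −0.28 ± 0.04, −0.18 ± 0.05 and −0.30 ± 0.06, adjusted p = 0.000141, 0.0144 and 0.00136). With PB, RPLP1 rose from 1113 ± 62 to 1281 ± 48.8 CPM (0.20 ± 0.05, adjusted p = 0.00366). RPLP2 did not pass with PB (0.13 ± 0.06, adjusted p = 0.0777), but it rose there with the replicate block (0.13, adjusted p = 0.0244). RPLP0, often used as a reference gene in PCR, stood at 1579.5 ± 52.2 CPM with DMSO, 1306 ± 40.7 with RA, 1594 ± 54.3 with PB and 1271 ± 53.4 with PB+RA. It did not pass with PB (0.01 ± 0.04, adjusted p = 0.804) but fell with PB+RA (−0.34 ± 0.04, adjusted p = 3.54e-06), while RPLP1 did not pass there (−0.04 ± 0.05, adjusted p = 0.564). RPLP2 fell with PB+RA by less (−0.18 ± 0.06, adjusted p = 0.0134).

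RPL5 and RPL11 join the large subunit together with the 5S rRNA. Both fell slightly with RA (−0.14 ± 0.05 and −0.16 ± 0.05, adjusted p = 0.0355 and 0.0173) and neither passed with PB or PB+RA, although RPL11 did with PB under the replicate block. RPL5 stood at 496 ± 17.5, 451 ± 25.6, 526 ± 20.9 and 482 ± 19.4 CPM with DMSO, RA, PB and PB+RA. RPS6, the substrate of the S6 kinases, stood at 631 ± 21.7, 570.5 ± 42.7, 624 ± 25.1 and 600.0 ± 23.5 CPM and passed with RA (−0.16 ± 0.05, adjusted p = 0.0365). RPS27A, which is made as a fusion with ubiquitin, fell with RA (−0.27 ± 0.06, adjusted p = 0.0029) and in PB+RA against PB (−0.25 ± 0.06, adjusted p = 0.0043). RPL4, among the 3 members with the highest CPM, stood at 1558 ± 35.5 CPM with DMSO, fell with RA to 1387 ± 66.1 (−0.18 ± 0.04, adjusted p = 0.005) and with PB rose to 1761 ± 58.1 (0.18 ± 0.04, adjusted p = 0.00246). With PB+RA it was at 1686 ± 48.2 CPM (0.09 ± 0.04, adjusted p = 0.0913).

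Several paralogues passed in other comparisons or directions than their core genes. Paralogues are second copies, some of which can replace a core protein, and their mRNAs are usually much rarer. RPL7L1 was less rare, with a mean of 271 CPM over all samples against 629 CPM for RPL7. RPL22L1 (chr3:170582664-170587997, minus strand) can take the place of RPL22. It stood at 41.8, 47, 49.5 and 43.3 CPM with DMSO, 50.5, 54.1, 49.4 and 46.9 with RA, 36.7, 33.5, 42.4 and 40.7 with PB and 41.8, 42.7, 44.5 and 47.7 with PB+RA. The PB samples overlapped those of DMSO at a single value, and RPL22L1 fell with PB (−0.24 ± 0.08, adjusted p = 0.0159). RPL22 itself rose with PB (0.18 ± 0.05, adjusted p = 0.00643) and fell with RA (−0.25 ± 0.05, adjusted p = 0.00101), from 184 ± 4.91 CPM with DMSO to 208 ± 11.6 and 156 ± 5.49.

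RPS27L (chr15:63418071-63450220, minus strand) is the paralogue of RPS27. It stood at 31.5, 28.5, 27.5 and 28.8 CPM with DMSO, 25.7, 26.9, 23.3 and 24.6 with RA, 27.1, 26.7, 22.4 and 22.3 with PB and 30.8, 34.5, 26.2 and 26.6 with PB+RA. Each agent alone gave lower values than DMSO in every sample, with PB passing (−0.24 ± 0.09, adjusted p = 0.0381) and RA not (−0.22 ± 0.09, adjusted p = 0.0728, but 0.00522 with the replicate block). The combination spanned the DMSO range (−0.00 ± 0.09, adjusted p = 0.971). RPS27, its core gene, fell with RA (−0.17 ± 0.05, adjusted p = 0.0146), and its decrease in the combination was −0.15 ± 0.05 (adjusted p = 0.019).

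RPL39L (chr3:186838736-186898696, minus strand) had few counts and stood at 9.68 ± 0.667, 8.42 ± 0.669, 7.73 ± 0.817 and 6.71 ± 1.01 CPM with DMSO, RA, PB and PB+RA. It fell with PB (−0.32 ± 0.11, adjusted p = 0.0224) and with PB+RA (−0.55 ± 0.11, both against DMSO, adjusted p = 0.000382). In PB+RA against PB it did not pass (−0.23 ± 0.11, adjusted p = 0.126), but did with the replicate block (−0.23, adjusted p = 0.0475). RPL39, its core gene, passed in none of the 3 comparisons with DMSO, but with the replicate block it fell with RA (−0.21, adjusted p = 0.00578) and rose with PB (0.17, adjusted p = 0.0175). RPL26L1 fell with RA and with PB+RA (−0.34 ± 0.09 and −0.30 ± 0.09, adjusted p = 0.00616 and 0.00544), whereas its core gene RPL26 fell with RA and rose with PB (−0.23 ± 0.08 and 0.29 ± 0.08, adjusted p = 0.0325 and 0.00511). With the replicate block RPL26L1 fell with PB as well (−0.19, adjusted p = 0.0236), and RPL26 rose with PB+RA (0.12, adjusted p = 0.0385). RPL7L1 fell with RA and with PB+RA (−0.14 ± 0.05 and −0.25 ± 0.05, adjusted p = 0.032 and 0.000314), and RPL7 fell with RA alone (−0.14 ± 0.04, adjusted p = 0.0222). RPL10, the counterpart of the untested RPL10L, fell with RA (−0.13 ± 0.05, adjusted p = 0.0475).

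**Figure D5:**
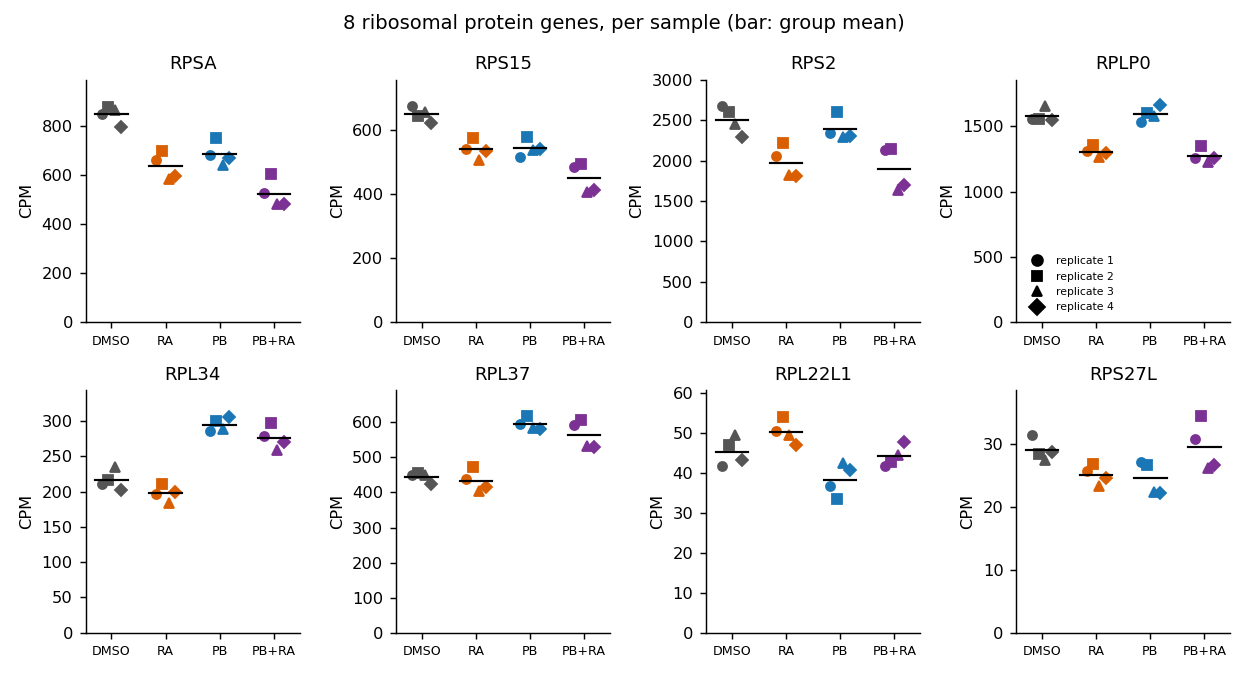
CPM of RPSA, RPS15, RPS2, RPLP0, RPL34, RPL37, RPL22L1 and RPS27L in each of the 16 samples, by group, with axes from 0, the marker giving the replicate number and the black bar the mean of 4 samples. RPSA and RPS15 fall from DMSO to PB+RA, RPL34 and RPL37 sit higher in both groups with PB, and RPS27L is lower with each agent alone than with DMSO.

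A few ribosomal protein genes lie outside the symbol rule. FAU, which encodes a small subunit protein as a fusion with a ubiquitin-like protein, fell with RA (−0.20 ± 0.07, adjusted p = 0.0246) and did not pass with PB (0.13 ± 0.07, adjusted p = 0.0985). RACK1, the scaffold of the small subunit, stood at 1429 ± 73.8 CPM with DMSO, 1329 ± 103 with RA, 1601 ± 80.6 with PB and 1499 ± 137 with PB+RA, and passed in no comparison. RPL36AL, the paralogue of RPL36A, averaged 0.26 to 0.461 CPM over the groups, a few times the floor, and fell with PB+RA (−0.86 ± 0.37, adjusted p = 0.0494). Its level is as low as that of RPL36A, so it too is uncertain as a measure of its mRNA.

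The mRNAs of the mitochondrial ribosomal proteins, which come from a separate set of nuclear genes, fell in most cases, with palbociclib too. Of 76 tested, 55 fell with RA, 42 fell and 8 rose with PB, and 59 fell and 6 rose with PB+RA, with medians of −0.29, −0.19 and −0.44. Over all tested genes 16.4% fell with RA, 25.2% fell and 28.4% rose with PB, and 31.4% fell and 34.7% rose with PB+RA. Their share of all counts was 0.553% ± 0.018 with DMSO, 0.457% ± 0.0202 with RA, 0.483% ± 0.0232 with PB and 0.415% ± 0.0301 with PB+RA. The large and small cytosolic subunits, by contrast, had medians of 0.15 and 0.04 with PB. The pyrimidine run at the start was present in 11 of 69 of the mitochondrial genes (15.9%).

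Most mRNAs of the factors that assemble the ribosome fell with RA and with PB+RA. Of 37 tested, 28 fell and 0 rose with RA, 12 fell and 9 rose with PB, and 26 fell and 5 rose with PB+RA (medians −0.23, −0.06 and −0.33). With PB these shares were near those of all tested genes, 25.2% and 28.4%, while with PB+RA 31.4% of all tested genes fell and 34.7% rose. With RA 16.4% of all tested genes fell and 18.8% rose. FBL, the methyltransferase of nucleolar ribosomal RNA, went from 417 ± 42.3 CPM with DMSO to 312 ± 43.5 with RA, 224 ± 17.1 with PB and 156 ± 19.8 with PB+RA (−1.44 ± 0.11 for the last, adjusted p = 6.7e-09). RRS1, needed for large subunit assembly, fell with PB+RA as well (−0.93 ± 0.07, adjusted p = 6.48e-09). NMD3 and LSG1, which act in export and the last steps of large subunit maturation, rose with PB+RA (0.43 ± 0.07 and 0.41 ± 0.06, adjusted p = 3.83e-05 and 2.93e-05).

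Other transcripts known to carry the TOP motif rose and fell in similar numbers with PB+RA. Of 23 translation factors and related TOP genes, 7 fell and 0 rose with RA, 10 rose and 5 fell with PB, and 8 rose and 7 fell with PB+RA. The last shares were close to those of all tested genes (34.7% and 31.4%), and with PB 28.4% of all genes rose and 25.2% fell. With RA 16.4% of all genes fell and 18.8% rose. EIF4A2, an RNA helicase of initiation, rose from 225 ± 16.6 CPM with DMSO to 403 ± 29.3 with PB and 461 ± 9.85 with PB+RA (1.01 ± 0.06 for the latter, adjusted p = 3.14e-10). EEF2, the translocation factor, rose with PB and PB+RA (0.47 ± 0.06 and 0.41 ± 0.06, adjusted p = 1.16e-05 and 3.11e-05). NPM1, a nucleolar chaperone, and EEF1D, an exchange factor of elongation, fell with PB+RA (−0.68 ± 0.06 and −0.69 ± 0.04, adjusted p = 4.65e-08 and 6.66e-10). Among 10 tested host genes of small nucleolar RNAs with the motif, 5 fell with RA, 5 rose and 1 fell with PB, and 4 rose and 3 fell with PB+RA. GAS5, known to accumulate in growth-arrested cells, rose with PB and PB+RA (0.78 ± 0.07 and 0.90 ± 0.07, adjusted p = 1.35e-07 and 8.85e-09). SNHG1 fell with PB+RA (−0.64 ± 0.07, adjusted p = 3.03e-07).

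Of the mRNAs of 24 other initiation factors tested, 11 fell with RA. With PB 13 fell and 1 rose, and with PB+RA 19 fell and 1 rose. Among 16 regulators of TOP mRNAs, 7 fell with RA, 8 fell and 3 rose with PB, and 10 fell and 3 rose with PB+RA. LARP1 stood at 535 ± 65, 532 ± 51.9, 529 ± 57.3 and 507 ± 36.3 CPM with DMSO, RA, PB and PB+RA and passed in none. DEPTOR, an inhibitor of mTOR, fell with RA and with PB+RA (−0.78 ± 0.11 and −0.79 ± 0.11, adjusted p = 9.14e-05 and 1.33e-05), and AKT1S1, another, rose with PB and PB+RA (0.43 ± 0.06 and 0.26 ± 0.06, adjusted p = 3.37e-05 and 0.00204). Of 6 kinases of the p90 family that phosphorylate RPS6, 1 rose and 2 fell with RA, 1 rose and 2 fell with PB, and 3 fell with PB+RA. For each of these lists the shares of all tested genes that fell were 16.4% with RA, 25.2% with PB and 31.4% with PB+RA. The shares that rose were 18.8%, 28.4% and 34.7%. With only 6 kinases, their counts are too few to be set against these shares.

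The size of the RA decrease differed between replicates. Fitted on replicates 1 and 2 alone, 23 members fell with RA, against 57 with all 4. A fit on fewer samples has less power, so these counts do not measure the size of the decrease. Over the 77 members with at least 10 CPM, the median log2 fold change with RA was −0.16 in replicates 1 and 2. It was −0.29 in replicates 3 and 4, and each of the 77 was lower there. Of 15135 tested genes, 9523 were lower in replicates 3 and 4 too, with medians of 0.003 and −0.032. For PB+RA against PB the medians of the members were −0.11 and −0.27, against −0.023 and 0.002 over all tested genes. Those of PB against DMSO were 0.08 and 0.08, against 0.029 and −0.028. The order of the members was similar in both pairs of replicates, with a Pearson r across genes of 0.877 for RA, 0.909 for PB and 0.933 for PB+RA against DMSO. Over all tested genes r was 0.843, 0.846 and 0.918, so this similarity was not particular to the members.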

How the data were processed

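RNA of 16 samples (4 groups of 4 replicates) had been poly(A)-selected, made into stranded libraries and sequenced in pairs of 50 bases. Per the labels and the methods of the study, the authors trimmed reads with Trim Galore 0.6.4 (minimum quality 20), aligned them to hg19 with STAR 2.6.1d and took the count of reads per gene from the aligner; these raw counts were deposited and are used as they stand. The annotation release and the strand column read are not given in the sources used here. Deposited CPM values were not used, nor were the authors' own comparisons (DESeq2 1.32.0 fold changes and p-values).

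Genes passing edgeR's filterByExpr were fitted once over all 16 samples with edgeR 4.0.16 in R 4.3.3 (TMM factors, robust quasi-likelihood fit), and p-values were adjusted over all 15415 tested genes by Benjamini-Hochberg. Each of the 5 comparisons and the interaction were contrasts of that fit. Alternatives used DESeq2 1.42.0, limma-voom (limma 3.58.1) and the settings of the closing section. The tests were checked on simulated counts drawn independently for each sample, so this check does not cover differences that replicates share across groups. Gene positions on hg19 are those of GENCODE v44lift37. Same-numbered samples deviated from their group means together in each of 24 pairs (r 0.33 to 0.573 over all tested genes). In 72 pairs with different numbers r ranged from −0.492 to 0.447. Replicate numbers were therefore taken to pair samples across groups in the replicate block. The fit reported did not use this pairing. Within groups, any pair of libraries differed by more than sampling noise (chi-square per degree of freedom of at least 3.00).

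The members, the other gene lists and the tests were chosen with earlier results of these data known. Named were the paralogues and their core genes, RPLP0, RPLP1, RPLP2, RPSA, RPS6, RPS27A, RPL5 and RPL11, the 3 highest and 3 lowest log2 fold changes per comparison among members with a mean of at least 10 CPM, the 2 highest and 2 lowest interactions, the 3 highest mean CPM, and 2 to 4 examples per list. A few genes are not reported here by name.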

Additional observations from a re-analysis of the deposited data

Results flagged for a closer look

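In 5 of 140 groups looked at (33 named members and 2 shares, 4 groups each), 1 sample stood far from the other 3 by Dixon's criterion for 4 samples. Chance alone gives about 1 in 20 groups. RPL26, which fell with RA and rose with PB, was at 438.3 CPM in PB replicate 2, above 394.4 to 401.2 CPM in the other PB samples. RPS2 was also high in PB replicate 2, at 2603 CPM against 2294 to 2343 CPM, with all 4 inside the DMSO range. RPLP0 was at 1657 CPM in DMSO replicate 3, above 1548 to 1558 CPM. RPS29 was at 168.0 CPM in RA replicate 2, above 153.1 to 154.8 CPM. RPS6 was at 586.5 CPM in PB replicate 1, below 632.5 to 638.9 CPM. PB replicate 2 is also the library without which the number of members that rose with PB was 20 in place of 31.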

How the results depend on the processing

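The medians of all comparisons kept their sign in every setting that uses all 4 replicates. No member passed the interaction in the fit reported, and 1 was above the sum with RLE size factors, 1 with TMM factors computed without the members, 1 without a filter on low counts, 1 with DESeq2, 1 with the replicate block, 2 with the block and a GC and length correction, and 1 in replicates 3 and 4. Against PB, the members that rose with PB+RA were 1 without the members in the TMM factors, 2 with the block, 2 with the GC correction, 2 with both, 1 in replicates 1 and 2 and 1 in replicates 3 and 4, in place of 0. With the block, 10 members fell in PB+RA against RA in place of 6. Over 35 named members and 6 contrasts (210 results), the replicate block added 31 calls and removed 0, 10 of them in PB+RA against PB. Several of those that touch a statement are given in the report. The shares of all tested genes that passed in these settings are not given here. The increase of RPL36A with PB+RA past the fold minimum was lost (0 in place of 1) without a filter, with DESeq2, in replicates 1 and 2 and in replicates 3 and 4.

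With the GC and length correction, 5 members fell with PB in place of 8 and 2 rose past the fold minimum, 1 fell past it with RA, 5 fell past it with PB+RA, and against RA 3 fell, 2 rose past the minimum and the median was 0.16 in place of 0.11. With the block added, 16 fell with PB, 1 rose and 1 fell past the minimum with RA, 5 fell past it with PB+RA, and against RA 51 rose, 2 of them past it, with a median of 0.16. In replicates 1 and 2 alone, 23 members fell with RA and 14 in PB+RA against PB, and 2 rose past the minimum against RA. In replicates 3 and 4 alone, 13 fell with PB, 2 past the minimum with RA, and with PB+RA 5 rose and 52 fell, 8 past the minimum, with a median of −0.16, and 1 fell past it against PB. RPL10A in PB+RA against PB turned to −0.11 there (adjusted p = 0.047) from 0.02. Smaller sample numbers apart, the cause of these shifts was not tested. Without RPS2, RPL4 and RPL3 the members' shares were 4.02% with DMSO, 3.51% with RA, 4.28% with PB and 3.81% with PB+RA.

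Leaving out 1 library at a time gave 20 to 29 members higher and 6 to 11 lower with PB, 45 to 66 lower with RA and 0 to 1 of them past the fold minimum. For PB+RA against DMSO it gave 6 to 8 higher, 26 to 38 lower, 0 to 1 higher and 3 to 5 lower past the minimum. Against PB it gave 0 to 1 higher, 34 to 54 lower and 0 to 2 past the minimum, and against RA 23 to 37 higher and 3 to 8 lower. The interaction was passed by 0 to 1. Medians ranged from 0.067 to 0.11 with PB, −0.25 to −0.20 with RA, −0.13 to −0.06 with PB+RA, −0.22 to −0.16 for PB+RA against PB, 0.078 to 0.15 against RA and −0.01 to 0.07 for the interaction. The shares ranged from 4.53% to 4.63%, 3.89% to 4.05%, 4.84% to 4.94% and 4.25% to 4.42% with DMSO, RA, PB and PB+RA.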

Other observations

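On chromosome 19 the replicates differed by position, a split chosen after the values were seen. RPL18, RPL13A, RPS9 and RPL28, which lie from RPL18 (chr19, hg19) towards the end of the long arm, were higher in replicates 3 and 4 than in replicates 1 and 2 in all 4 groups. For RPL13A the log2 difference was 0.17 with DMSO, 0.11 with RA, 0.39 with PB and 0.09 with PB+RA, and for RPL28 it was 0.12, 0.12, 0.27 and 0.04. RPS15, RPL36, RPS28, RPS16 and RPS19, nearer the start of the chromosome, were lower in replicates 3 and 4 in all 4 groups, by −0.18, −0.22, −0.12 and −0.24 in the case of RPS19. The spread of RPL13A over replicates, and so the error of its fold changes, contains this difference. Of 118 other genes with at least 10 CPM in the same stretch, 80.5% to 88.1% were higher in replicates 3 and 4, against 35.7% to 46.9% of 561 other genes before it and 49.2% to 56% of 9190 on other chromosomes. The labels give no batch, passage number or date by which these replicates could be told apart.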
